A study of Mus musculus with 10 samples.

Results

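The response of the mouse uterus to estradiol (E2) was measured in offspring of dams that had received only the vehicle, DMSO, during pregnancy. It rests on 4 of the 10 arrays of the study, 2 from E2-injected and 2 from vehicle-injected offspring, chosen by their labels alone. All animals were CD-1, an outbred stock. Dams were treated on days 9 to 21 of pregnancy. Their daughters lost the ovaries at the age of 6 weeks and received an injection of 300 ng E2 or of DMSO at 8 weeks. The uterus was taken 6 h after the injection. The other 6 arrays came from offspring of dams given bisphenol A (BPA) at 5 mg/kg per day over the same days, 3 injected with E2 and 3 with DMSO after the same surgery. They entered the same fit and supply a second E2 response for comparison. RNA was pooled by litter, and the labels give litters 1 and 2 for each injection, so each array is a pool and the number of animals in it is not given in the sources used here.

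Estradiol enters cells and binds estrogen receptors, which act on chromatin near target genes. In the uterus of an ovariectomised rodent, a single dose gives an early phase of transcription, water uptake and blood flow. A later phase of epithelial DNA synthesis, mitosis and secretion follows, so that samples taken within hours of the dose precede most cell division. Epithelium, stroma, muscle, vessels and resident immune cells all contribute RNA to whole uterus. In such bulk samples, fewer cells of a type and less RNA per cell cannot be told apart.

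Expression is given as normalized log2 intensity, and a change is the E2-injected minus the vehicle-injected group mean on this scale, with its standard error from limma. A change was called when its Benjamini-Hochberg adjusted p, taken over 16272 tested genes and unnamed probes, was under 0.05. The probe of highest mean level stands for a gene, so levels are not compared between genes. Further probes are mentioned for some genes only, and where none is mentioned they may not have been called. Median raw signal was 129 and 132 on the E2-injected arrays and 126 on each vehicle-injected array, over an estimated background of 114 to 119. Between 19723 and 21109 of 45281 probes were detected. Arrays of one injection correlated at r = 0.992 and arrays of different injections at 0.978 across genes, and the median SD between arrays was 0.10 in the E2-injected and 0.11 in the vehicle-injected group. All 4 arrays lay on slide 1, the E2-injected ones at positions C and D and the vehicle-injected ones at E and F, so that injection and position on the slide cannot be told apart. Markers of the labelled tissue were looked at. Of the tested ones, 16 of 17 epithelial, 15 of 15 stromal and 13 of 16 smooth muscle were detected on all 4 arrays. Tested markers had already passed a filter of detection on at least 2 of the 10 arrays, so these shares are partly fixed by it. Of 20 epithelial markers on the array, Epcam, Ehf and Spdef did not pass this filter. The p-values and standard errors rest on the spread between pools within every group of the study, those after BPA in utero included. They do not measure the spread between these pools alone. With 2 arrays a side, the number of arrays limits the precision.

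The E2-injected and vehicle-injected groups differed in 3643 of 16272 tested genes and probes (22.4%), 1782 higher with E2 (11.0%) and 1861 lower (11.4%). A change of 2-fold or more was seen in 192 of the higher and 446 of the lower genes. The median change over all tested genes was 0.02, and the values of the 2 groups did not overlap for any of the 3643, nor for 9678 (59.5%) of all 16272. The number called changed with the arrays and the model used. A fit of the 4 arrays alone called 1431, of which 1401 were among the 3643. Without replicate 1 of the E2-injected group 2344 were called, and without replicate 2 of the vehicle-injected group 2365. With litter as a block 2702 were called, and 2545 of the 3643 kept their call. Among genes named below, the block took the call from Cdkn1a, Myc, Etf1, Rarg, Timm10, Lox, Loxl1, Msln and Aoc1 (adjusted p from 0.0518 to 0.0768). The lists described below gave 65 counts of 2 or more members called in 1 direction, and the block lowered 22 of these by over 1.5 times. The number called higher with the block, against that without it, was 3 against 13 for translation factors, 5 against 11 for the proteasome, 7 against 12 for synthetases, 9 against 14 for endoplasmic reticulum genes, 6 against 11 for secretory genes, 4 against 7 for cholesterol synthesis and 7 against 11 for nucleotide metabolism. It was 6 against 10 for both immediate early genes and growth factors, 4 against 8 for matrix proteins, 1 against 3 for oxidative phosphorylation, 2 against 4 for nuclear receptors and for endothelium, and 0 against 2 for mast cells. The number called lower was 3 against 5 for vascular genes, 1 against 3 for lymphocytes and for smooth muscle, 0 against 3 for matrix proteins, 0 against 2 for endoplasmic reticulum genes, and 1 against 2 for D cyclins and inhibitors, polyamine metabolism and mesothelium.

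**Figure D1:**
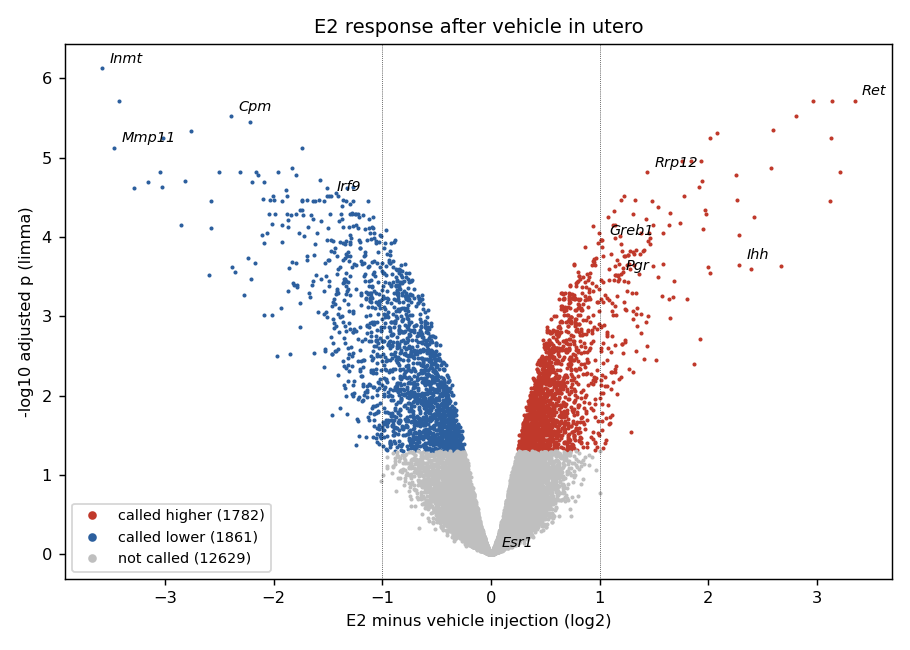
Each point is 1 of 16272 tested genes or unnamed probes, with the E2 minus vehicle difference in log2 on the x axis and -log10 of the limma adjusted p on the y axis. The 1782 genes called higher and 1861 called lower are coloured, dotted lines mark a 2-fold change, and more points lie beyond it on the lower side (446) than on the higher side (192).

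The plot of change against adjusted p shows how unequal the extremes were, with falls outnumbering rises beyond 2-fold. By the probe that stands for each gene, the largest rise was in Ret, the receptor tyrosine kinase of the GDNF family ligands. Its values were 9.58 and 9.44 on the E2-injected arrays, against 6.22 and 6.10 on the vehicle-injected arrays, a rise of 3.35 ± 0.11 or 10.2-fold (adjusted p = 1.92e-06). Both Ret probes were called higher. Its ligand gene Gdnf also rose, with 8.20 and 8.16 on E2-injected and 7.60 and 7.67 on vehicle-injected arrays (rise 0.54 ± 0.09, adjusted p = 0.00328). In both genes the E2-injected arrays lay above both vehicle-injected ones, with a gap wider than the distance between arrays of one group.

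Glandular kallikreins, secreted serine proteases, made up 5 of the 15 largest rises. Klk1 had 8.53 and 8.37 on E2-injected and 5.32 and 5.29 on vehicle-injected arrays, a difference of 3.14 ± 0.11 (adjusted p = 1.92e-06). Klk1b27, Klk1b26, Klk1b5 and Klk1b21 differed by 3.21 ± 0.17, 3.13 ± 0.14, 2.67 ± 0.26 and 2.59 ± 0.10. The Klk1b genes are close to identical in sequence, so values of single members are uncertain, and for Klk1b26 and Klk1b5 the probe was detected on 1 vehicle-injected array. Klk1b5 was at 8.03 and 8.05 on the E2-injected arrays, against 4.87 and 5.87 on the vehicle-injected arrays, which lay further apart.

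The other genes among the 15 largest rises were of varied kinds. Scgb1c1, a secretoglobin, had 7.96 and 8.13 on E2-injected and 4.58 and 5.27 on vehicle-injected arrays, of which 1 detected the probe. Col23a1, a transmembrane collagen, had 8.33 and 8.41 on E2-injected and 5.64 and 5.48 on vehicle-injected arrays (rise 2.81 ± 0.10, adjusted p = 3.01e-06). Spink8, a Kazal-type protease inhibitor, rose by 2.27 ± 0.15, the alpha-2-macroglobulin-like inhibitor A2ml1 by 2.02 ± 0.09, the chitinase-like Chil5 by 2.39 ± 0.24 and the noradrenaline transporter Slc6a2 by 2.26 ± 0.12. Ihh, the hedgehog ligand of uterine epithelium, had 7.13 and 7.18 on E2-injected arrays, against 4.79 and 4.96 on the vehicle-injected arrays, where it was not above background. It was at least 4.29-fold higher with E2 (adjusted p = 0.000222), while its other, dimmer probe differed by 0.73 ± 0.25 and was not called. Gal, the precursor of the neuropeptide galanin, was likewise not above background without E2 (7.33 and 6.86 on E2-injected, 4.63 and 4.99 on vehicle-injected arrays) and at least 4.11-fold higher. Here the bound sets the mean of the E2-injected arrays against the lowest signal well measured on the vehicle-injected ones, or the probe's own where that was higher. Wdr92, a WD-repeat co-chaperone, had 10.25 and 10.21 on E2-injected and 7.34 and 7.19 on vehicle-injected arrays by its brighter probe, but its other probe differed by 0.31 ± 0.13 and was not called.

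**Figure D2:**
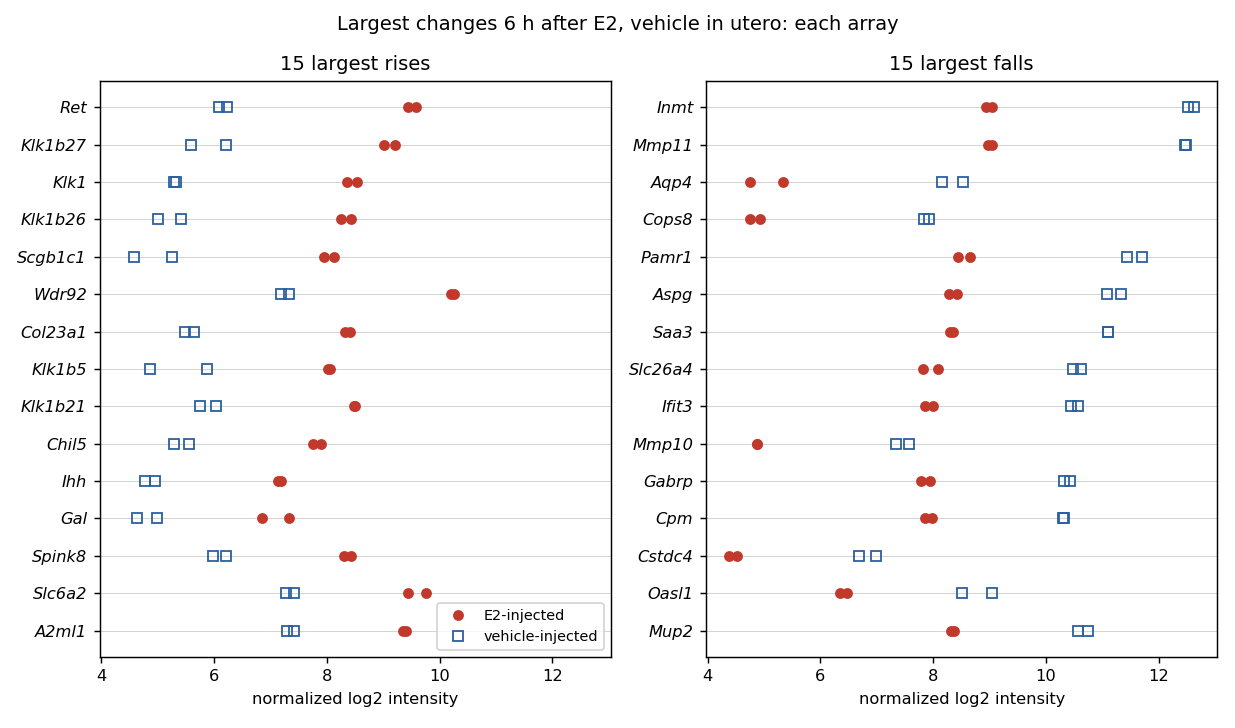
Normalized log2 intensity (x axis) on each of the 4 arrays for the 15 largest rises (left) and 15 largest falls (right) among called, named genes whose groups did not overlap. Filled circles are E2-injected and open squares vehicle-injected arrays, and in each gene both E2-injected arrays lie on one side of both vehicle-injected arrays. Ret and Klk1b27 have the largest rises, and Inmt and Mmp11 the largest falls.

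The largest falls included proteases, transporters and acute-phase genes. Inmt, a methyltransferase of indole amines, had 8.93 and 9.05 on E2-injected arrays, against 12.51 and 12.62 on vehicle-injected arrays, and fell by 3.58 ± 0.09 or 11.9-fold (adjusted p = 7.46e-07). The stromelysins Mmp11 and Mmp10 fell with it. Mmp11 was at 9.04 and 8.97 with E2 and 12.47 and 12.48 without. Mmp10 was not above background on the E2-injected arrays (4.88 and 4.88, against 7.34 and 7.57 on vehicle-injected arrays) and at least 5.01-fold lower. Saa3, an acute-phase serum amyloid, had 8.29 and 8.36 on E2-injected and 11.09 and 11.09 on vehicle-injected arrays (change -2.77 ± 0.11). The plot of values per array shows each of these pairs of arrays close together and far from the other pair.

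The 15 largest falls also held a water channel, an anion exchanger and a receptor channel, while the list of water channel and ion transport genes had a median change of -0.04. Aqp4, a water channel, had 4.75 and 5.34 on E2-injected arrays, with the probe detected on 1 of them, against 8.52 and 8.15 on vehicle-injected arrays (change -3.29 ± 0.19). Slc26a4, the anion exchanger pendrin, changed by -2.60 ± 0.26, and Gabrp, the pi subunit of the GABA receptor, by -2.51 ± 0.13. Further falls were in Pamr1 (-3.02 ± 0.13), the asparaginase Aspg (-2.85 ± 0.22), the membrane carboxypeptidase Cpm (-2.40 ± 0.09) and the interferon-induced Ifit3 (-2.58 ± 0.17) and Oasl1 (-2.36 ± 0.24). Cops8, a subunit of the COP9 signalosome, had 4.92 and 4.76 on E2-injected arrays, not above background, against 7.92 and 7.84 on vehicle-injected arrays, and was at least 6.75-fold lower by its single probe. Cstdc4, of the cystatin family, was at least 3.26-fold lower. Mup2, a major urinary protein gene with near-identical copies, fell by 2.31 ± 0.12 by the brightest of its 3 probes, of which 2 were called.

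Genes known as direct estrogen targets moved by less than these extremes. Pgr, the progesterone receptor gene, had 9.28 and 9.58 on E2-injected and 8.32 and 8.20 on vehicle-injected arrays, a rise of 1.17 ± 0.12 (adjusted p = 0.000307). Greb1, an estrogen receptor cofactor gene, had 10.42 and 10.51 on E2-injected and 9.48 and 9.40 on vehicle-injected arrays (rise 1.02 ± 0.09, adjusted p = 0.00011). Both of its probes and both Pgr probes were called higher. Among 21 tested early estrogen-induced uterine genes, 8 were higher and 2 lower, with a median change of 0.24, against 0.02 over all genes. The higher ones included Ramp3, a co-receptor of adrenomedullin (0.88 ± 0.10), and the lower ones were Wnt4 and the transcription factor gene Sox4, with 9.91 and 9.81 on E2-injected and 11.69 and 11.52 on vehicle-injected arrays (change -1.74 ± 0.12). With array 1 or 2 of the E2-injected or array 1 or 2 of the vehicle-injected group left out, in this order as throughout, 6, 6, 6 and 7, and 5 on the 4 arrays alone were higher. Such counts are given below where they moved a list's count by over 1.5 times. A single member called against the direction of its list lost its call on the 4 arrays alone among immediate early, polymerase, nucleotide, ATF4 and epithelial genes.

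Other classical targets did not pass the test. Ltf, which encodes the secreted iron-binding protein lactoferrin, had 15.34 and 15.35 on E2-injected and 15.39 and 15.41 on vehicle-injected arrays and was not called (adjusted p = 0.679). It was among the brightest probes of the array already without E2, and its second probe was lower by 0.84 ± 0.25 (adjusted p = 0.0498 with every probe tested). Esr1, the main uterine estrogen receptor gene, overlapped between the groups, with 9.88 and 10.09 on E2-injected and 9.78 and 10.13 on vehicle-injected arrays. Igf1, a growth factor of uterine stroma, had 11.36 and 11.26 on E2-injected and 11.09 and 11.12 on vehicle-injected arrays and was not called by its brighter probe (adjusted p = 0.0904). Its other probe was called higher, at 0.44 ± 0.10. Lif differed by 0.29 ± 0.29, Vegfa by 0.22 ± 0.12, Odc1 by 0.15 ± 0.11 and Ccnd1 by -0.21 ± 0.08, and none of these was called. Of these, Igf1, Vegfa and Ccnd1 were called when the variance was given a trend and estimated robustly (adjusted p = 0.0146, 0.0484 and 0.00985).

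Immediate early genes, the transcription factors and feedback genes that respond first to many stimuli, were higher for 10 of 21 and lower for 1 (median 0.27). Egr2 had 8.80 and 8.68 on E2-injected and 7.41 and 7.18 on vehicle-injected arrays (rise 1.44 ± 0.12, adjusted p = 0.000112). Egr1 had 11.85 and 11.83 on E2-injected and 11.06 and 11.10 on vehicle-injected arrays (rise 0.76 ± 0.07). Srf, which drives such genes after growth signals, rose by 0.54 ± 0.08, and Csrnp1 by 0.67 ± 0.12. Fos ran the other way, with 9.49 and 9.36 on E2-injected and 9.98 and 9.93 on vehicle-injected arrays (change -0.53 ± 0.10, adjusted p = 0.00483). Fos was not called on the 4 arrays alone (adjusted p = 0.0581). Myc differed by 0.40 ± 0.12 (adjusted p = 0.046), a call lost under most alternatives, among them the 4 arrays alone (adjusted p = 0.155). The counts of higher members were 6, 6, 8 and 6, and 4 on the 4 arrays alone.

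Ligand and receptor genes of several developmental pathways changed. In the hedgehog pathway 4 of 11 genes were higher and none lower. Besides the ligand gene Ihh these were the receptor gene Ptch1, with 8.32 and 8.33 on E2-injected and 7.26 and 7.22 on vehicle-injected arrays (rise 1.09 ± 0.11, adjusted p = 0.00025), the hedgehog-binding inhibitor gene Hhip and the transcription factor gene Gli2 (0.56 ± 0.07). Ptch1 and Hhip are textbook targets of the pathway as well as its inhibitors. Gli1 and Gas1, also of this list, were on the array but did not pass the detection filter. Of the 11 tested genes 7 changed by more than 0, and the lowest change was -0.56. Hhip was not above background on the vehicle-injected arrays and at least 1.52-fold higher. A dim second probe of Ptch1 was not called.

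Of 39 tested growth factor and receptor genes 10 were higher and 3 lower. Inhba, a subunit of activin, had 7.94 and 8.08 on E2-injected and 7.22 and 7.12 on vehicle-injected arrays (rise 0.84 ± 0.09). The insulin-like growth factor receptor gene Igf1r fell by 0.93 ± 0.08, with 8.87 and 8.99 on E2-injected and 9.90 and 9.83 on vehicle-injected arrays, though only 1 of its 4 probes was called. Igfbp5, which binds insulin-like growth factors, fell by 0.94 ± 0.09 by all 3 probes. The counts of higher members were 3, 5, 7 and 3, and 3 on the 4 arrays alone. Of 16 tested retinoid genes, 5 were called higher and none lower. These were all 3 tested retinaldehyde dehydrogenase genes, Aldh1a1 (1.32 ± 0.12), Aldh1a3 (0.89 ± 0.13, detected on 1 vehicle-injected array) and Aldh1a2 (0.54 ± 0.10), and the receptor genes Rara (0.71 ± 0.18) and Rarg (0.44 ± 0.12). The corresponding counts were 3, 4, 4 and 3, and 2 on the 4 arrays alone.

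Wnt pathway genes split, 5 higher and 6 lower of 33. The ligand gene Wnt5a had 11.85 and 11.94 on E2-injected and 11.03 and 11.21 on vehicle-injected arrays (rise 0.78 ± 0.10, 3 of 3 probes). Wnt2 went the other way, with 4.64 and 5.24 on E2-injected arrays, detected on 1 of them, and 6.49 and 6.91 on vehicle-injected arrays (change -1.76 ± 0.21). Wnt4 had 8.41 and 8.28 on E2-injected and 8.90 and 9.08 on vehicle-injected arrays (change -0.65 ± 0.12, adjusted p = 0.00591, but 0.0501 on the 4 arrays alone). Among modulators, the secreted inhibitor gene Wif1 rose by 1.38 ± 0.18, and Dkk3 and the agonist gene Rspo3 fell by 0.82 ± 0.09 and 0.79 ± 0.09.

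Regulators of uterine patterning and implantation were higher for 7 of 23 and lower for 3. Hoxa10, a homeobox gene needed for implantation in mice, had 6.94 and 6.88 on E2-injected and 5.90 and 6.15 on vehicle-injected arrays (rise 0.89 ± 0.15, adjusted p = 0.00344). Hoxa11 differed by 0.30 ± 0.27 and was not called. Id1, an inhibitor of basic helix-loop-helix factors, rose by 0.84 ± 0.11, while the Krüppel-like factor genes Klf9 and Klf5 fell by 0.53 ± 0.08 and 0.51 ± 0.08. The counts of higher members were 6, 4, 6 and 4, and 3 on the 4 arrays alone, where none was lower. Among nuclear receptor and coregulator genes 4 of 21 were higher and 1, Pparg, was lower, with 6.90 and 7.20 on E2-injected and 8.11 and 8.22 on vehicle-injected arrays. The share of this list called, 23.8%, was near the 22.4% over all tested genes and probes. The higher counts there were 1, 3, 2 and 1, and 1 on the 4 arrays alone.

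**Figure D3:**
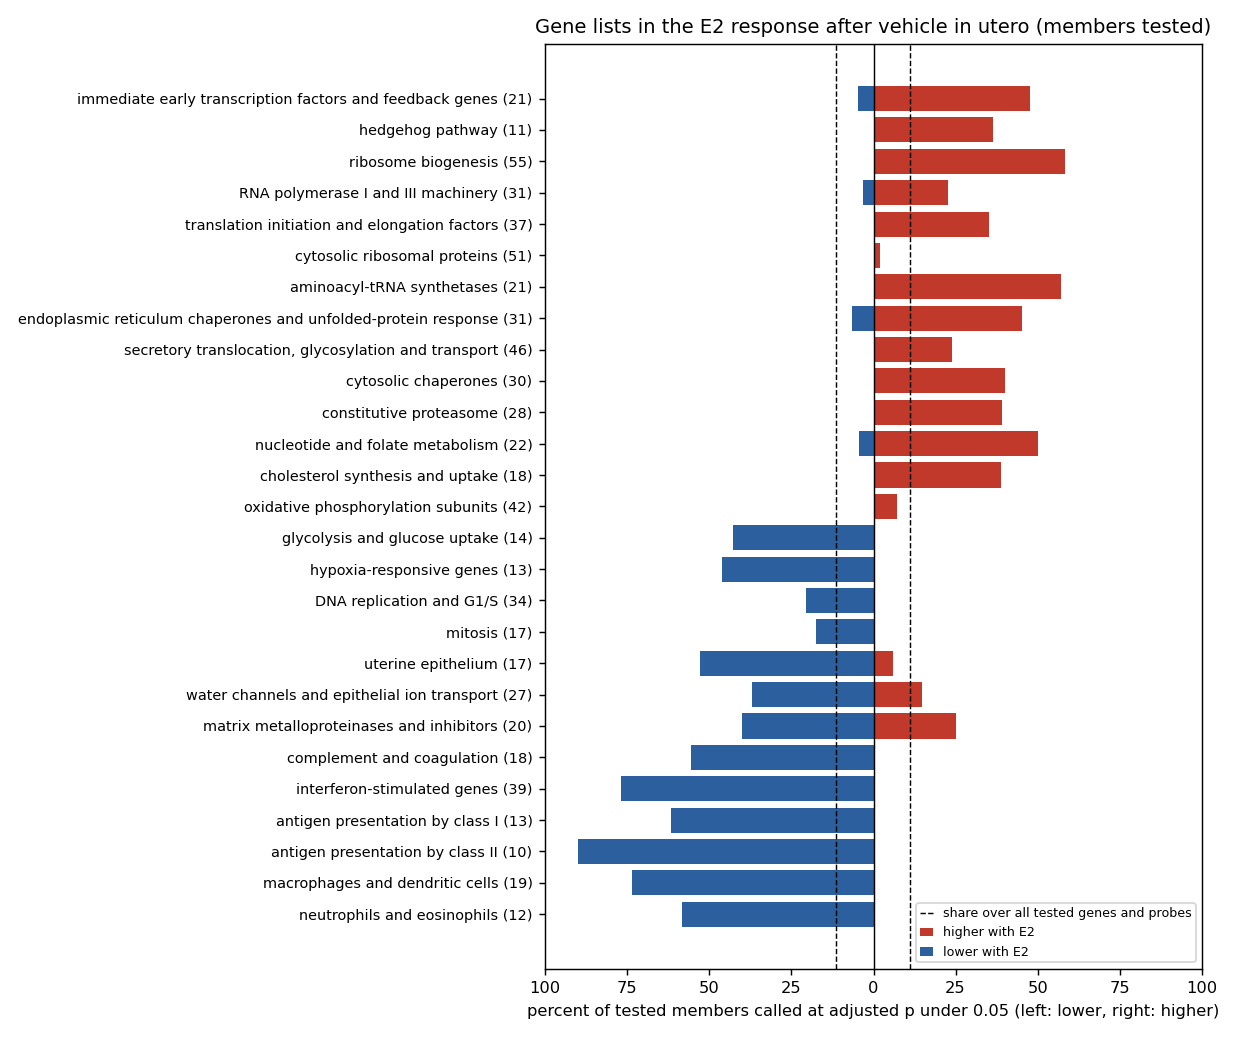
Percent of tested members of 27 gene lists called higher (right, red) or lower (left, blue) with E2 after vehicle in utero, with the number tested in brackets. Dashed lines mark the shares over all 16272 tested genes and probes, 11.0% higher and 11.4% lower. Ribosome biogenesis reaches 58.2% higher and class II antigen presentation 90.0% lower, while cytosolic ribosomal proteins stay at 1.96% higher.

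The machinery that builds ribosomes was among the lists with the largest share of higher members, as the plot of called shares by list shows. Of 55 tested ribosome biogenesis genes, 32 were higher and 0 lower, with a median change of 0.47. Rrp12, an assembly factor exported with preribosomes, had 10.62 and 10.52 on E2-injected and 9.13 and 9.13 on vehicle-injected arrays (rise 1.44 ± 0.08, adjusted p = 1.53e-05). Nop58 and Nop56, core proteins of the particles that methylate ribosomal RNA, rose by 0.78 ± 0.09 and 0.68 ± 0.08. Rrp15 had 10.18 and 10.09 on E2-injected and 9.36 and 9.28 on vehicle-injected arrays, and Rrp1b 9.33 and 9.36 on E2-injected and 8.68 and 8.56 on vehicle-injected arrays, with no overlap in either. The counts of higher members were 21, 23, 24 and 21, and 13 on the 4 arrays alone.

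Of 31 tested RNA polymerase I and III genes, 7 were called higher and 1 lower (median 0.30, 25.8% called, against 22.4% over all tested genes and probes). They included the polymerase I subunit genes Polr1e (0.72 ± 0.10) and Polr1a (0.56 ± 0.11) and the initiation factor gene Rrn3 (0.62 ± 0.13). The counts were 5, 5, 3 and 7, and 1 on the 4 arrays alone. Translation factors were higher for 13 of 37 and lower for none (median 0.18). The guanine nucleotide exchange subunit Eif2b3 had 9.74 and 9.68 on E2-injected and 8.59 and 8.67 on vehicle-injected arrays (rise 1.08 ± 0.08), and the release factor genes Gspt1 and Etf1 rose by 0.44 ± 0.07 and 0.36 ± 0.08. The translation factor counts were 6, 6, 2 and 4, and 1 on the 4 arrays alone. Aminoacyl-tRNA synthetase genes, whose products charge tRNAs, were higher for 12 of 21 (median 0.36). Aimp2, a scaffold of the synthetase complex, had 10.06 and 10.07 on E2-injected and 9.12 and 9.11 on vehicle-injected arrays, the alanyl synthetase gene Aars rose by 0.63 ± 0.09 and Cars by 0.81 ± 0.10, the last by 1 of 3 probes. A dimmer Aars probe differed by -0.24 ± 0.16 and was not called. The counts were 7, 7, 7 and 8, and 5 on the 4 arrays alone. Of 51 tested structural proteins of the cytosolic ribosome 1, Rps15a, was called (median 0.02), and the lists were not tested against each other.

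Protein folding and secretion genes formed another set of higher lists. In the endoplasmic reticulum, 14 of 31 chaperone and unfolded-protein response genes were higher and 2 lower (median 0.29). Creld2, a secreted stress-induced protein, had 10.90 and 11.14 on E2-injected and 9.86 and 9.82 on vehicle-injected arrays (rise 1.18 ± 0.11, adjusted p = 0.000217). Hyou1, a large chaperone, had 7.24 and 7.32 on E2-injected and 5.95 and 6.31 on vehicle-injected arrays (rise 1.15 ± 0.15). The co-chaperone gene Dnajc3 rose by 0.75 ± 0.12 and the stress-induced transcription factor gene Ddit3 by 0.60 ± 0.11. A dimmer Ddit3 probe differed by 0.35 ± 0.21 and was not called. The counts were 7, 7, 8 and 12, and 4 on the 4 arrays alone for higher and 0, 1, 1 and 0, and 0 on the 4 arrays alone for lower members. Genes of translocation, glycosylation and transport were higher for 11 of 46 and lower for none. The share called was 23.9%, against 22.4% over all tested genes and probes, of which 11.0% were higher. Srprb, a subunit of the signal recognition particle receptor, had 10.97 and 11.26 on E2-injected and 10.22 and 10.20 on vehicle-injected arrays. Ssr3 and Ddost, of the translocon and the oligosaccharyltransferase, rose by 0.52 ± 0.08 and 0.49 ± 0.08. The counts there were 4, 6, 8 and 7, and 1 on the 4 arrays alone.

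The unfolded-protein response acts through a promoter element known as ERSE, made of CCAAT and CCACG with 9 bases between. It was searched on both strands of the promoter windows that RefSeq gives for GRCm38.p6, from 250 bases before to 50 after each start. It was found in 8 of the 28 endoplasmic reticulum genes with a window (28.6%), in 5 of 15 called ones (33.3%), and in 14 of 9963 tested genes (0.141%). A match is a description of the sequence and no evidence of binding. Shown are Creld2, Dnajc3 and Hsp90b1, which were called higher, and Hspa5, picked after its values were seen as the best known carrier of the element, which differed by 0.39 ± 0.14 and was not called. Capitals mark the match on either strand, in chr15:88819500-88819558 (plus strand), chr14:118937807-118937865 (plus), chr10:86705513-86705676 (minus) and chr2:34772005-34772063 (plus).
Creld2: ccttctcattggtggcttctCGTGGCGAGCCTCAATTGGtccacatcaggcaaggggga
Dnajc3: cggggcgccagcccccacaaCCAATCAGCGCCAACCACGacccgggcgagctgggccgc
Hsp90b1: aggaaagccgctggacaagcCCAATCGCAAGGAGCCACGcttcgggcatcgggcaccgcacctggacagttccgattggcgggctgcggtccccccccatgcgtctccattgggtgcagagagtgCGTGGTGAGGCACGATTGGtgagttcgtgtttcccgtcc
Hspa5: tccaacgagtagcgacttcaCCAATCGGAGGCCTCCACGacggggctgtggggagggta

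Of 30 tested cytosolic chaperone genes, 12 were called higher and none lower (median 0.36). The heat shock gene Hspa1a had 8.20 and 8.05 on E2-injected and 7.16 and 7.16 on vehicle-injected arrays by 1 of 3 probes called (rise 0.97 ± 0.11). Hsph1, Chordc1, Stip1 and Fkbp4, partners of the Hsp70 and Hsp90 chaperones, rose by 0.76 ± 0.12, 0.63 ± 0.07, 0.47 ± 0.08 and 0.56 ± 0.09. The counts were 6, 8, 9 and 8, and 4 on the 4 arrays alone. Mitochondrial chaperone and import genes were higher for 5 of 20, among them the intermembrane space chaperones Timm9 (0.43 ± 0.07) and Timm10 (0.66 ± 0.16), with counts of 3, 4, 4 and 4, and 0 on the 4 arrays alone. Proteasome subunits of the constitutive particle were higher for 11 of 28 and lower for none, by small steps such as Psmd1, with 13.38 and 13.42 on E2-injected and 13.01 and 12.99 on vehicle-injected arrays (rise 0.40 ± 0.08). The counts in that list were 4, 3, 4 and 5, and 0 on the 4 arrays alone, and 5 with cyclic loess normalization. Oxidative phosphorylation subunits were called in 3 of 42 (median 0.13), a share of 7.14% that lay under that over all tested genes and probes. Cycs, cytochrome c, was at 0.40 ± 0.08, and the counts were 2, 1, 2 and 2, and 0 on the 4 arrays alone.

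Biosynthetic enzymes rose in several pathways. Of 22 tested purine, pyrimidine and folate genes, 11 were called higher and 1 lower. The purine enzyme gene Gart had 10.50 and 10.43 on E2-injected and 9.78 and 9.88 on vehicle-injected arrays (rise 0.63 ± 0.09), and Atic, of the same pathway, rose by 0.74 ± 0.12. The mitochondrial folate enzyme gene Mthfd2 rose by 0.59 ± 0.08. The counts were 7, 5, 6 and 6, and 4 on the 4 arrays alone. Of 18 tested cholesterol synthesis genes, 7 were called higher and none lower (median 0.32). Sqle, squalene epoxidase, had 10.87 and 10.79 on E2-injected and 9.89 and 9.87 on vehicle-injected arrays (rise 0.95 ± 0.09), and Cyp51 and Lss rose by 0.88 ± 0.10 and 0.86 ± 0.15. The counts were 5, 3, 4 and 4, and 3 on the 4 arrays alone.

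Of 20 tested ATF4 targets and amino acid supply genes, 7 were called higher and 1 lower. Asns, asparagine synthetase, had 10.94 and 10.97 on E2-injected and 9.94 and 9.93 on vehicle-injected arrays, with 3 of 3 probes called. Atf5, Psat1 and Phgdh, of which the last are serine synthesis enzymes, rose by 0.78 ± 0.13, 0.44 ± 0.10 and 0.68 ± 0.17, and Atf4 itself by 0.54 ± 0.13. The counts were 2, 4, 6 and 3, and 1 on the 4 arrays alone. In polyamine metabolism, Srm, spermidine synthase, had 11.35 and 11.43 on E2-injected and 10.27 and 10.24 on vehicle-injected arrays (rise 1.13 ± 0.08, 3 of 3 probes). The catabolic oxidase genes fell, Smox by 1.16 ± 0.09 with 5 of 5 probes and Aoc1 by 0.45 ± 0.12, the last not called in the fit that blocks on litter (adjusted p = 0.0518), on the 4 arrays alone or with any of them left out. Odc1, the rate-limiting enzyme of the pathway, was not called, as given above.

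Glycolysis and hypoxia-responsive genes lay on the lower side. Of 14 tested glycolysis and glucose uptake genes, 6 were called lower and none higher (median -0.25). Aldoc had 7.64 and 7.72 on E2-injected and 8.92 and 8.71 on vehicle-injected arrays, and the glucose transporter genes Slc2a1 and Slc2a3 fell by 0.43 ± 0.10 and 0.55 ± 0.11. The counts of lower members were 3, 3, 3 and 6, and 2 on the 4 arrays alone. Hypoxia-responsive genes were lower for 6 of 13 (median -0.34). Egln3, an oxygen-sensing prolyl hydroxylase, had 9.04 and 9.16 on E2-injected and 11.30 and 11.23 on vehicle-injected arrays (change -2.17 ± 0.11, adjusted p = 1.51e-05), Ndrg1 fell by 1.29 ± 0.11 and the carbonic anhydrase gene Car9 by 1.27 ± 0.18. Circadian clock genes were lower for 4 of 14, with the output gene Dbp at 11.32 and 11.43 on E2-injected and 12.22 and 12.17 on vehicle-injected arrays, and counts of 2, 5, 4 and 2, and 2 on the 4 arrays alone. Glucocorticoid-responsive genes split into 5 higher, led by the metallothionein gene Mt2 (1.36 ± 0.14), and 3 lower, such as Klf9, with 3, 3, 3 and 2, and 2 on the 4 arrays alone higher, and 2, 2, 2 and 3, and 1 on the 4 arrays alone lower.

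No tested member of the DNA replication or mitosis lists was called higher. Of 34 tested DNA replication and G1/S genes, 7 were called lower and none higher (median -0.20). The share called, 20.6%, was near the 22.4% over all tested genes and probes, of which 11.4% were lower. Mcm10, an origin-firing factor, had 7.90 and 7.71 on E2-injected and 8.54 and 8.52 on vehicle-injected arrays (change -0.72 ± 0.13), the replicative ligase gene Lig1 fell by 0.76 ± 0.14 and Uhrf1 by 0.52 ± 0.10. Dimmer probes of Lig1 differed by -0.23 ± 0.17 and -0.47 ± 0.20 and were not called. The counts were 6, 5, 3 and 5, and 2 on the 4 arrays alone. Mitosis genes were lower for 3 of 17 (17.6%, against 11.4% lower over all tested genes and probes). An example was the spindle checkpoint gene Bub1b (-0.55 ± 0.10), and the counts were 2, 1, 3 and 1, and 0 on the 4 arrays alone. Among D cyclins and inhibitors 3 of 19 were higher and 2 lower (26.3% called, against 22.4% over all tested genes and probes). Ccnd2 had 8.42 and 8.68 on E2-injected and 7.58 and 7.78 on vehicle-injected arrays (rise 0.87 ± 0.12), while Cdkn1a, the p21 inhibitor gene, differed by 0.30 ± 0.08 (adjusted p = 0.0254), a call lost on the 4 arrays alone (adjusted p = 0.135). The counts there were 1, 1, 1 and 1, and 1 on the 4 arrays alone for higher and 0, 1, 1 and 1, and 0 on the 4 arrays alone for lower members.

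Genes of blood flow and fluid transport changed in both directions. Of 24 tested vascular genes, 7 were called higher and 5 lower. Nos3, the endothelial nitric oxide synthase gene, had 9.05 and 9.05 on E2-injected and 7.63 and 7.49 on vehicle-injected arrays (rise 1.49 ± 0.11, 3 of 3 probes). Ptges, which makes prostaglandin E2, rose by 1.11 ± 0.18, and the receptor gene Flt1 by 0.61 ± 0.09, while Vegfd fell by 0.70 ± 0.11. The counts were 7, 6, 7 and 5, and 2 on the 4 arrays alone for higher and 3, 4, 3 and 3, and 2 on the 4 arrays alone for lower members. Endothelial markers were higher for 4 and lower for 2 of 14. The summed linear intensity of all 14 was 11821 and 11864 on E2-injected and 10189 and 10596 on vehicle-injected arrays. The endothelial counts were 3, 2, 2 and 2, and 1 on the 4 arrays alone for higher and 1, 1, 1 and 2, and 0 on the 4 arrays alone for lower members. The part of endothelium in the vascular values was not tested. Water channel and ion transport genes were higher for 4 and lower for 10 of 27. Besides Aqp4, Slc26a4 and Gabrp the lower ones included the calcium channel gene Trpv6, with 9.45 and 9.26 on E2-injected and 10.60 and 10.83 on vehicle-injected arrays, and Aqp1 (-0.84 ± 0.09). The higher counts were 2, 4, 2 and 2, and 2 on the 4 arrays alone.

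Matrix proteases and their inhibitors were higher for 5 and lower for 8 of 20. Mmp3 had 7.04 and 6.90 on E2-injected and 8.56 and 8.39 on vehicle-injected arrays and fell with Mmp10 and Mmp11, whereas the aggrecanase-type proteases Adamts1 and Adamts4 rose by 0.81 ± 0.10 and 0.68 ± 0.08. Collagens and matrix proteins were higher for 8 and lower for 3 of 33. Apart from Col23a1 these changes were small, such as Loxl1 (0.40 ± 0.09) and Lamc1 (0.39 ± 0.09) among the higher and the crosslinking enzyme gene Lox (-0.36 ± 0.08) among the lower. The counts for matrix proteins were 3, 5, 6 and 1, and 1 on the 4 arrays alone for higher and 1, 0, 0 and 1, and 0 on the 4 arrays alone for lower members. For proteases and inhibitors they were 5, 5, 5 and 5, and 3 on the 4 arrays alone for higher and 6, 7, 7 and 6, and 5 on the 4 arrays alone for lower members.

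Late secretory genes, which mark the epithelial phase of the estrogen response, split into 8 higher and 7 lower of 27. The kallikreins led the higher ones, and as the Klk1b genes are close to identical in sequence, counting them as separate members is uncertain. Sprr2d, a small proline-rich protein of epithelial surfaces, had 11.74 and 11.95 on E2-injected and 13.45 and 13.48 on vehicle-injected arrays (change -1.62 ± 0.11). Epithelial markers were lower for 9 and higher for 1 of 17 (median -0.33). Cldn4, a tight junction claudin, had 9.51 and 9.68 on E2-injected and 11.15 and 11.03 on vehicle-injected arrays, the mucin gene Muc1 fell by 0.98 ± 0.09 with 4 of 4 probes and keratin 19, Krt19, by 0.74 ± 0.08, while the transcription factor gene Grhl2 rose by 0.55 ± 0.09. The summed linear intensity of the epithelial markers was 26224 and 25512 on E2-injected arrays, against 35910 and 36304 on vehicle-injected arrays. Its part in the values of secretory and channel genes was not tested. The lower counts of epithelial markers were 6, 5, 6 and 7, and 4 on the 4 arrays alone.

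Interferon-stimulated genes, which are switched on by type I and type II interferons through STAT and IRF factors, had the largest count of lower members. Of 39 tested, 30 were lower and 0 higher, with a median change of -0.78. Irf9, the DNA-binding subunit of the interferon-activated complex, had 10.86 and 10.87 on E2-injected and 12.35 and 12.36 on vehicle-injected arrays (change -1.49 ± 0.09, adjusted p = 3.08e-05). Isg15, a ubiquitin-like modifier, had 8.04 and 8.21 on E2-injected and 10.05 and 9.75 on vehicle-injected arrays (change -1.77 ± 0.14). Gbp3, a guanylate-binding GTPase, had 9.05 and 9.00 on E2-injected and 10.68 and 10.65 on vehicle-injected arrays, and the antiviral radical enzyme gene Rsad2 7.50 and 7.57 on E2-injected and 9.33 and 9.07 on vehicle-injected arrays. In each of these genes the E2-injected arrays were both below both vehicle-injected ones by over 1 log2 unit.

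The interferon-stimulated response element, GAAA and GAAA with 2 bases between, searched on both strands of the same windows, was found in 15 of 28 interferon-stimulated genes with a window (53.6%), in 10 of 22 called ones (45.5%), and in 369 of 9963 tested genes (3.70%). Among all 1146 genes called lower with a window it was in 65 (5.67%), and among 1148 called higher in 30 (2.61%). Shown are Ifit3, Isg15 and Gbp3, which fell, and Bst2, picked after its values were seen as an interferon-stimulated gene that carries the element and differed by only -0.05 ± 0.34. They lie in chr19:34583353-34583436 (plus strand), chr4:156200855-156200916 (minus), chr3:142559979-142560034 (plus) and chr8:71537567-71537622 (minus), with matches on either strand in capitals.
Ifit3: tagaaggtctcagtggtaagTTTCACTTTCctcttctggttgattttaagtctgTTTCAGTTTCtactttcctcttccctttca
Isg15: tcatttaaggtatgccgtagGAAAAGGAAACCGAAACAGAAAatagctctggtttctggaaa
Gbp3: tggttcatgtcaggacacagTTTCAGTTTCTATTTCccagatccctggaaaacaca
Bst2: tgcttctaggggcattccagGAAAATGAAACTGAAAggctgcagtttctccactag

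The palindromic estrogen response element, GGTCA and TGACC with 3 bases between, was in 1 of the 9963 windows of tested genes and in none of the 18 early estrogen-induced genes that have one. This says only that these letters are not within these windows.

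Antigen presentation genes lay lower as well. Class I genes and their peptide supply were lower for 8 of 13 and higher for none (median -0.53). The immunoproteasome subunit gene Psmb9 had 8.52 and 8.71 on E2-injected and 9.74 and 9.83 on vehicle-injected arrays (change -1.17 ± 0.11), Psmb8 fell by 0.78 ± 0.08 and Psmb10 by 0.61 ± 0.08. H2-T23 fell by 0.99 ± 0.12 with 3 of 3 probes, and the class I transactivator gene Nlrc5 by 0.97 ± 0.16. Class II genes were lower for 9 of 10 (median -0.90). H2-Ab1 had 11.00 and 11.01 on E2-injected and 11.93 and 11.87 on vehicle-injected arrays, but a dimmer probe differed by -0.25 ± 0.16 and was not called. The invariant chain gene Cd74 had 12.22 and 12.22 on E2-injected and 13.04 and 12.79 on vehicle-injected arrays, with 3 of 3 probes called. The lower counts were 7, 7, 6 and 8, and 5 on the 4 arrays alone for class I, and 7, 7, 6 and 7, and 5 on the 4 arrays alone for class II. Histocompatibility genes are polymorphic and share sequence, so single probes may not measure 1 gene. The list counts use 1 probe per gene. Single probes of H2-D1, H2-Q5 and H2-T10 were called higher, by 4.55, 2.01 and 0.54, while other probes of the same genes were called lower.

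**Figure D4:**
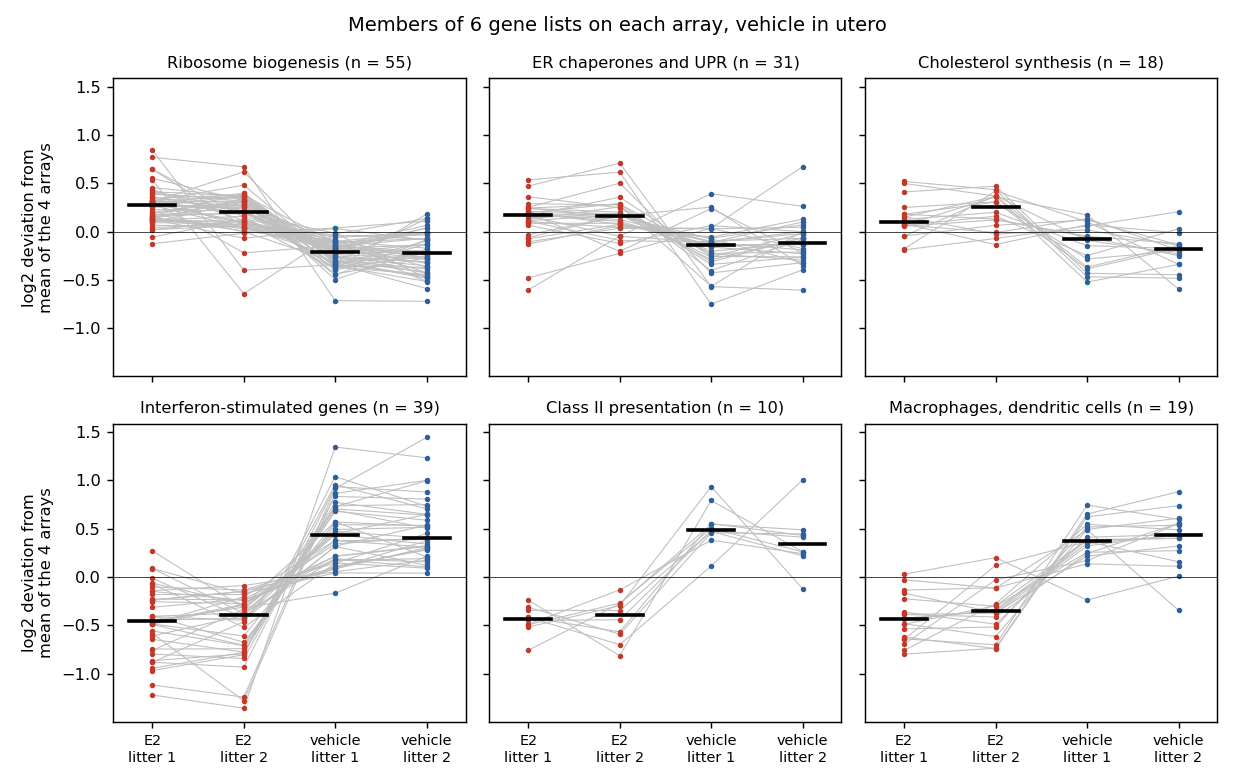
Each line is 1 tested member of the list named above the panel, as its log2 deviation from its own mean over the 4 arrays (y axis) on each array (x axis, E2-injected left of vehicle-injected), and black bars are medians. Bars for ribosome biogenesis, endoplasmic reticulum chaperones (ER) and cholesterol synthesis lie above 0 on both E2-injected arrays, and those for interferon-stimulated genes, class II presentation and macrophage markers below 0 on both.

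Chemokines and receptors were higher for 5 and lower for 11 of 27. The eosinophil attractant gene Ccl11 had 12.32 and 12.26 on E2-injected and 11.08 and 11.09 on vehicle-injected arrays (rise 1.20 ± 0.08), and Ccl7, a monocyte attractant, had 9.37 and 9.41 on E2-injected and 8.52 and 8.30 on vehicle-injected arrays. Another Ccl7 probe differed by 0.19 ± 0.10 and was not called. Cxcl15 rose by 1.95 ± 0.15, while Cxcl16 and Ccl4 fell by 1.05 ± 0.10 and 1.11 ± 0.13. A dimmer Ccl4 probe differed by -0.22 ± 0.21 and was not called. The lower counts were 9, 8, 7 and 8, and 3 on the 4 arrays alone. Of 18 tested complement and coagulation genes, 10 were called lower and none higher (median -0.44). C2 had 10.83 and 10.67 on E2-injected and 12.07 and 12.10 on vehicle-injected arrays (change -1.33 ± 0.09), C4b fell by 1.11 ± 0.13 and the properdin gene Cfp by 0.73 ± 0.08.

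Macrophage and dendritic cell markers moved with these immune lists, 14 of 19 lower and none higher (median -0.78). Adgre1, an adhesion receptor gene used to mark macrophages, had 7.57 and 7.63 on E2-injected and 9.02 and 9.25 on vehicle-injected arrays (change -1.54 ± 0.10, 3 of 3 probes). Lyz2, the macrophage lysozyme gene, had 11.73 and 11.75 on E2-injected and 12.79 and 12.80 on vehicle-injected arrays, and Aif1 fell by 1.34 ± 0.11. The summed linear intensity of the 19 markers was 14622 and 14607 on E2-injected arrays, against 26488 and 27243 on vehicle-injected arrays, and 17 of them were detected on all 4. The part of these cells in the interferon, antigen presentation and complement values was not tested. The plot of members by array shows the macrophage and class II medians on the same side in both arrays of each group.

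Neutrophil and eosinophil markers were lower for 7 of 12 (median -0.86). S100a8, a calprotectin subunit, had 10.02 and 9.89 on E2-injected and 11.68 and 11.71 on vehicle-injected arrays, and its partner S100a9 fell by 2.00 ± 0.13. The cytokine gene Il1b fell by 1.60 ± 0.13. Their summed intensity was 3372 and 3250 with E2 and 8290 and 8165 without, and the lower counts were 5, 5, 7 and 5, and 5 on the 4 arrays alone. Lymphocyte markers were lower for 3 of 10 with sums of 4465 and 4437 on E2-injected and 4258 and 4332 on vehicle-injected arrays, which do not run the way of the called members, and counts of 1, 1, 2 and 1, and 2 on the 4 arrays alone. Mast cell markers were higher for 2 of 7, and for none with any of the 4 arrays left out.

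Some markers of fat, blood, serosa, stroma and muscle were also called. Adipocyte markers were lower for 4 of 8. Adipoq, which encodes adiponectin, had 9.44 and 9.55 on E2-injected and 10.65 and 10.82 on vehicle-injected arrays (change -1.24 ± 0.09), and the lower counts were 3, 3, 4 and 3, and 3 on the 4 arrays alone. Globin and other red blood cell genes were lower for 3 of 4, with sums of 81492 and 84100 on E2-injected and 109140 and 105170 on vehicle-injected arrays, though probes of Hbb-bs and Hbb-bt were called in both directions. The lower counts of red cell genes were 2, 3, 2 and 3, and 0 on the 4 arrays alone, where every call was lost. Mesothelial markers were lower for 2 of 4, Upk3b by 0.60 ± 0.08 and Msln by 0.63 ± 0.19, with counts of 1, 1, 1 and 1, and 1 on the 4 arrays alone. Stromal markers were higher for 2 and lower for 1 of 15 (20% called, against 22.4% over all tested genes and probes). Their sums were 61032 and 61105 on E2-injected and 65321 and 66831 on vehicle-injected arrays, and by cyclic loess 1 was higher and 3 lower. The stromal counts were 1, 1, 2 and 1, and 1 on the 4 arrays alone for higher and 1, 0, 0 and 0, and 0 on the 4 arrays alone for lower members. Smooth muscle markers were higher for 2 and lower for 3 of 16 (31.25% called, against the same 22.4%). The muscle counts were 2, 1, 2 and 1, and 1 on the 4 arrays alone for higher and 2, 1, 1 and 2, and 1 on the 4 arrays alone for lower members. The part of fat, blood or serosa in the other values was not tested.

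The same dose of E2 was also measured after BPA in utero, on 6 other arrays. Those lay on slide 2, so exposure and slide cannot be told apart in the difference of the responses. There 4725 genes were called (29.0%). Of the 3643 genes called after vehicle, 1463 were called in the same direction after BPA, 40.2% of the calls after vehicle and 31.0% of those after BPA, and 438 in the opposite direction (12.0% and 9.27%). The difference of the responses, after vehicle minus after BPA, was called for 2533 genes (15.6%), 1253 more positive (7.70%) and 1280 more negative (7.87%) after vehicle. It was called for 1522 of the 3643 (41.8%) and for 442 of the 638 that changed at least 2-fold. All 15 of the largest rises and 13 of the 15 largest falls were among them, Aspg and Oasl1 being the exceptions. Ihh, Gal, Mmp10, Cops8, Cstdc4 and Aqp4 were not above background in at least 1 of the 4 groups, so their differences have no measured size. The 3643 called genes, the 638 changed at least 2-fold and the largest rises and falls were all picked by their change after vehicle. That change is part of the difference, so their difference from the second response is partly fixed by the choice.

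**Figure D5:**
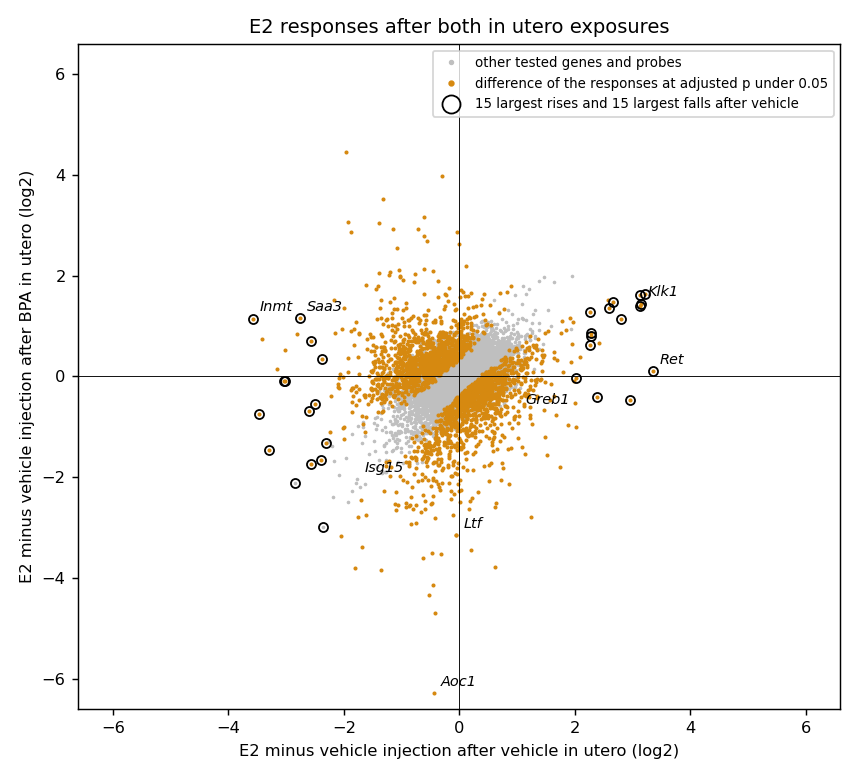
Each point is 1 of 16272 tested genes or probes, with the E2 minus vehicle difference (log2) after vehicle in utero on the x axis and after BPA in utero on the y axis. Orange points are the 2533 whose responses differed at adjusted p under 0.05, circles the 15 largest rises and falls after vehicle. Inmt and Saa3 lie below 0 on the x axis and above 0 on the y axis, and Ret lies near 0 on the y axis.

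Among the leading genes some responded in both exposures and others in 1. Klk1 rose by 3.14 ± 0.11 after vehicle and by 1.45 ± 0.09 after BPA, and Cpm changed by -2.40 ± 0.09 and -1.65 ± 0.07. Ret rose by 3.35 ± 0.11 after vehicle and differed by 0.10 ± 0.09 after BPA, where it was not called (difference 3.25 ± 0.14, adjusted p = 3.03e-06). Inmt changed by -3.58 ± 0.09 after vehicle and 1.15 ± 0.07 after BPA (difference -4.73 ± 0.12, adjusted p = 3.07e-07), and Saa3 by -2.77 ± 0.11 and 1.15 ± 0.09. Both were called in opposite directions, as the plot of the 2 responses shows. Greb1 changed by 1.02 ± 0.09 and -0.69 ± 0.07. Ltf, not called after vehicle, fell by 3.16 ± 0.06 after BPA (difference 3.10 ± 0.10, adjusted p = 1.16e-06). Isg15 changed by -1.77 ± 0.14 and -2.05 ± 0.12, with a difference of 0.27 ± 0.18 that was not called (adjusted p = 0.372).

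By list, some responses had similar medians after both exposures and others did not. Ribosome biogenesis genes had medians of 0.47 after vehicle and 0.34 after BPA, and the difference was called for 3 of 55. Interferon-stimulated genes had -0.78 and -0.85, but the difference was called for 5 of 39 more positive and 7 of 39 more negative after vehicle. Over all tested genes and probes the difference was called for 7.70% more positive and 7.87% more negative. Endoplasmic reticulum chaperones had 0.29 and -0.08, and 12 of 31 differed, all more positive after vehicle. Class II genes had -0.90 and 0.39, with 7 of 10 more negative after vehicle, macrophage markers -0.78 and -0.13 with 11 of 19, and adipocyte markers -0.39 and 0.42 with 5 of 8. Mitosis genes had -0.20 after vehicle and -1.12 after BPA, and 11 of 17 were more positive after vehicle.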

How the data were processed

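The members and gene lists were chosen with earlier results of these data known. The authors deposited, per the file headers, a mean bead signal per probe, a linear intensity that was not normalized, and a detection p-value per probe for 45281 probes on each of 10 Illumina arrays. They also deposited a processed table of intensity, whose normalization is not given in the sources used here. Scanner and software are not given in the sources used here. From the deposited intensity, limma 3.58.1 in R 4.3.3 gave background-corrected, quantile-normalized log2 values (neqc, background inferred from the deposited detection p-value, offset 16).

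Probes detected at p under 0.05 on at least 2 arrays were kept, and the probe of highest mean over the 10 arrays stood for a gene. One fit of 4 group means over all 10 arrays gave E2 minus vehicle after vehicle in utero and the difference of both E2 responses, tested two-sided with Benjamini-Hochberg adjustment. Steps were tested on simulated data. Pairing of arrays by litter comes from the litter numbers in the labels, which do not state that equal numbers of 1 exposure mark the same litter. Deviations of same-numbered arrays from their group means correlated at 0.0222 after vehicle and between -0.0409 and 0.0151 after BPA, so the block on litter is an alternative. With 2 arrays a side an exact permutation test of 1 gene cannot go below p = 0.333.

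Genes named are the 15 largest changes in each direction with an informative symbol and no overlap, up to 5 called members of each of 53 lists by smallest p, and 18 genes of interest. Alternatives left out the background correction, normalized by cyclic loess or took the authors' table. Others were other detection filters, every probe, a variance trend, array weights, the 4 arrays alone, the litter block and leaving out each array. Promoter sequences are RefSeq's for GRCm38.p6, matched by symbol for 9963 tested genes. Tables were handled with Python 3.11.15 and pandas 2.3.3.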

Additional observations from a re-analysis of the deposited data

Results flagged for a closer look

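The E2 responses after vehicle and after BPA in utero differed by the interaction test in limma for 2533 genes (15.6%). No group held 4 or more arrays, so single arrays standing apart could not be looked for. Slide and exposure cannot be told apart in any of these differences, which are given as the response after vehicle minus the response after BPA in log2. Values with an adjusted p are from the fit over 10 arrays.

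Among the largest rises after vehicle, the difference was 3.25 ± 0.14 for Ret, 3.44 ± 0.13 for Wdr92, 2.80 ± 0.30 for Chil5, 2.04 ± 0.11 for A2ml1, 1.74 ± 0.18 for Klk1b26, 1.70 ± 0.14 for Klk1, 1.67 ± 0.14 for Col23a1 and 1.65 ± 0.19 for Spink8. It was 1.58 ± 0.22 for Klk1b27, 1.51 ± 0.26 for Scgb1c1, 1.23 ± 0.13 for Klk1b21, 1.19 ± 0.33 for Klk1b5 and 0.99 ± 0.16 for Slc6a2. Wdr92 was called lower after BPA (-0.48 ± 0.08).

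Among the largest falls it was -4.73 ± 0.12 for Inmt, -3.92 ± 0.15 for Saa3, -2.93 ± 0.17 for Pamr1 and -2.72 ± 0.21 for Mmp11. It was -1.95 ± 0.17 for Gabrp, -1.91 ± 0.34 for Slc26a4, detected on 1 E2-injected array after BPA, -0.99 ± 0.16 for Mup2, -0.84 ± 0.22 for Ifit3 and -0.74 ± 0.11 for Cpm.

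The fit also called a difference for genes that were not above background in a whole group, for which the fitted value is neither a measured size nor a bound. Ihh (fitted 1.48) and Gal (fitted 1.43) were not above background on the vehicle-injected arrays after vehicle in utero. Mmp10 (fitted -3.28) and Cops8 (fitted -2.96) were not above background on the E2-injected arrays after vehicle in utero, and Mmp10 was called higher after BPA (0.70 ± 0.16). Cstdc4 (fitted -2.72) was not above background there nor on the vehicle-injected arrays after BPA, and Aqp4 (fitted -1.82) was not above background on the E2-injected arrays after BPA.

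Among the genes of interest the difference was 3.10 ± 0.10 for Ltf, 1.71 ± 0.11 for Greb1, 0.99 ± 0.16 for Pgr, 0.81 ± 0.19 for Hoxa10 and 0.41 ± 0.09 for Egr1. It was -0.98 ± 0.16 for Wnt4, -0.68 ± 0.12 for Fos and -0.40 ± 0.10 for Ccnd1. With litter as a block the differences of Klk1b5, Egr1, Ifit3 and Ccnd1 were no longer called (adjusted p = 0.0673, 0.0845, 0.0932 and 0.0945).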

How the results depend on the processing

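The fit of the 4 arrays alone called 1431 genes, 533 higher and 898 lower. Fewer arrays leave 2 residual degrees of freedom there, against 6 with all 10. With litter as a replicate block as well, an alternative chosen after seeing the data, 842 were called, 256 higher and 586 lower. Leaving out 1 array gave 2344 to 3515 called genes, 1065 to 1681 higher and 1279 to 1834 lower, and 1794 to 2237 for the difference of the responses. A group left with 1 array was assumed to vary like the others. The replicate block on litter in the full fit called 2702, 1213 higher and 1489 lower, and 1739 for the difference. Of 249 named genes, the block took 32 below the threshold, the 4 arrays alone 91, leaving out 1 of the 4 arrays 35 to 43 and every other single setting at most 13. None changed sign. Cyclic loess gave 1349 higher and 2063 lower and moved the median change to -0.02. The authors' processed table gave 2231 higher and 2243 lower. With cyclic loess the counts of higher genes were 5 against 11 for the proteasome, 4 against 7 for cholesterol synthesis, 8 against 13 for translation factors, 7 against 11 for secretory genes, 2 against 4 for nuclear receptors and 1 against 2 for mast cells and stroma, and 5 against 3 matrix genes were lower. Of 65 list counts of 2 or more, the 4 arrays alone lowered 50 by over 1.5 times, leaving out 1 of the 4 arrays 24 to 30 and the litter block 22. A variance trend moved 8, of which 7 went up, and every other setting over all 10 arrays moved at most 8. Called genes made up 8.60%, 21.8%, 29.8% and 29.4% of those from the dimmest to the brightest 25% by mean level. The cause of these changes was not tested.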

Other observations

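Of 5079 genes with 2 or more kept probes, 532 had at least 2 called, and 7 of these had probes called in opposite directions. They are named after their values were seen. One probe of H2-D1 read 9.51 and 9.31 on E2-injected arrays, against 4.58 and 5.13 on vehicle-injected arrays, a change of 4.55, while other probes of the gene reached -0.88. Probes ranged between -1.40 and 2.01 for H2-Q5, -0.75 and 1.12 for Adap1, -0.95 and 0.62 for Hbb-bs, -0.88 and 0.54 for H2-T10, -0.74 and 0.36 for Scoc and -0.39 and 0.66 for Hbb-bt.

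Both remaining marker lists had few tested members. Ovary and oviduct markers were higher for 1 of 2, Ovgp1, which was not called on the 4 arrays alone, under the litter block or with any of the 4 arrays left out. Nerve and glia markers were called for 0 of 3 by limma.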
